A study of Homo sapiens with 4 samples.

Results

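The genes described here encode the RUNX and NFI transcription factors, namely RUNX1, RUNX2, RUNX3, their partner CBFB, NFIA, NFIB, NFIC and NFIX, and the measurement is where SOX2 and its DNA-binding domain (SOX2-DBD) were listed as bound around them. The members are the distinct intervals of the SOX2 and SOX2-DBD peak lists that overlap the body of 1 of the 8 genes or the 50 kb on either side of it, in hg19 with GENCODE release 44 mapped to that build. There were 102 such intervals among 58827 in all. They comprised 68 intervals listed for SOX2 alone (SOX2-only), 33 present in both lists (shared) and 1 listed for SOX2-DBD alone (DBD-only).

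The study mapped V5-tagged proteins by CUT&RUN, in which an antibody, here against V5, brings a nuclease to its target in intact nuclei and the fragments cut free are sequenced. Both groups were BJ cells, an established line of human foreskin fibroblasts, 48 h into ectopic expression, of full-length SOX2 in 1 group and of SOX2-DBD in the other, with 2 samples per group. The lists analysed belong to replicate 1 of each group, and whether they also draw on replicate 2 is not given in the sources used here. No list from cells without an introduced protein was analysed, and the labels do not say what drives expression or at what level. With 1 list per group there was no replicate error and no test between the groups, and the depth behind each interval is unknown. Ranges in brackets are Wilson 95% confidence intervals of shares, which cover counting error over intervals only. Peak lists carry no expression values, so the fibroblast label could not be set against marker genes.

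RUNX proteins bind DNA through the Runt domain, and CBFB, which does not touch DNA itself, stabilises that binding. RUNX1 is known for blood formation, RUNX2 for bone and cartilage and RUNX3 for T cells and sensory neurons. NFI proteins bind as dimers to a palindrome of TTGGC, and NFIA is known for glial development, NFIB for lung and brain development, NFIC for tooth roots and NFIX for muscle and brain. In fibroblasts, RUNX and NFI sites are frequent in active enhancers beside sites of AP-1, the FOS and JUN dimers. SOX2 is a pluripotency and neural factor that can bind DNA on nucleosomes, and its DNA-binding domain is the HMG box.

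The sequences that follow are the 200-bp windows at the centres of the shared interval of highest total signal at RUNX1, RUNX2, CBFB, NFIA, NFIB and NFIC. They show sites listed for both proteins at each of these loci, and at NFIB and NFIC they are the only such sites. They are the plus strand of GRCh37, and capitals mark matches, on either strand, to the SOX core motif (ACAAAG or ACAATG), the AP-1 motif (TGAGTCA or TGACTCA) or the RUNX motif (TGTGGT or TGCGGT). A window with no capitals holds none of these letters, which says nothing about the factors themselves. The NFIA interval ranks first by a total signal above its maximum multiplied by its width, a limit described below.
RUNX1, chr21:36569866-36570065, shared: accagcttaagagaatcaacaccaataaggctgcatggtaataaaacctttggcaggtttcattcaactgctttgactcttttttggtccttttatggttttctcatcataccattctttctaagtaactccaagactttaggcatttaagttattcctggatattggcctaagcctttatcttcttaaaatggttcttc
RUNX2, chr6:45450493-45450692, shared: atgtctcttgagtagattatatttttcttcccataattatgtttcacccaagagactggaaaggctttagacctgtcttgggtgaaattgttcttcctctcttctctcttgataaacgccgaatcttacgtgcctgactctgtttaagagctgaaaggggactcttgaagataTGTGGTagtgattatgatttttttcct
CBFB, chr16:67089730-67089929, shared: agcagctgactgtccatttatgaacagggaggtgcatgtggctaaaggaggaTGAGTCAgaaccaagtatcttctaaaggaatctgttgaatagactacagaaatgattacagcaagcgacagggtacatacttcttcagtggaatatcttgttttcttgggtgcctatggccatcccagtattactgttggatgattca
NFIA, chr1:61618450-61618649, shared: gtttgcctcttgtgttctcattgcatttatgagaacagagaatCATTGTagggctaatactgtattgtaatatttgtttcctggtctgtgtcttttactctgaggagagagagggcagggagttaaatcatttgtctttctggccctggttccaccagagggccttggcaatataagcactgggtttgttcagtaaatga
NFIB, chr9:14215707-14215906, shared: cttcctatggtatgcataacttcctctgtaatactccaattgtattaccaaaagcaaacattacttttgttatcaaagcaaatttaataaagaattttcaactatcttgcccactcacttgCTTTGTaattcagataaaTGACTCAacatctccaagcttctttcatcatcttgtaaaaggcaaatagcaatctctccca
NFIC, chr19:3451071-3451270, shared: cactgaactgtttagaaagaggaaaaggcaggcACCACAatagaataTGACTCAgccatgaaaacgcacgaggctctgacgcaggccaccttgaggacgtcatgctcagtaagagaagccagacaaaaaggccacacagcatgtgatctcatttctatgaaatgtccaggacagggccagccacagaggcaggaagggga
The NFIA window held ACAATG on the minus strand and no AP-1 match. The NFIB window held ACAAAG on the minus strand and TGACTCA within 25 bases, at positions 122 to 127 and 140 to 146 counted from its left end. CBFB and NFIC had an AP-1 match without a SOX core match, and the NFIC window also held TGTGGT on the minus strand. The RUNX2 window held TGTGGT at positions 174 to 179. The RUNX1 window had no match to the SOX core, AP-1 or RUNX motif. The NFI element TTGGCA, which capitals do not mark, was in the RUNX1 and NFIA windows and in no other of these.

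Of all 102 windows, 4 held both a SOX core and an AP-1 match, and all 4 were shared. This was 3.92% (1.54 to 9.65) of windows, against 4.19% of all intervals, and 12.1% (4.82 to 27.3) of shared windows, against 8.20% of all shared intervals, so both shares lay near those of the whole lists. Among SOX2-only windows it was 0 of 68 (0 to 5.35), a range that held the 2.82% of all SOX2-only intervals. Besides the NFIB window, the windows with both matches were the 3 below, in introns of RUNX1 and RUNX2, chosen after their matches were seen.
RUNX1, chr21:36861414-36861613, shared: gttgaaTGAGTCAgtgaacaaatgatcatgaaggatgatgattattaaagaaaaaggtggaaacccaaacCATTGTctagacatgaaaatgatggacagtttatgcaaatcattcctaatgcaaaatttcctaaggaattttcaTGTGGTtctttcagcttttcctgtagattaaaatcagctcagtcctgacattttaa
RUNX1, chr21:36987085-36987284, shared: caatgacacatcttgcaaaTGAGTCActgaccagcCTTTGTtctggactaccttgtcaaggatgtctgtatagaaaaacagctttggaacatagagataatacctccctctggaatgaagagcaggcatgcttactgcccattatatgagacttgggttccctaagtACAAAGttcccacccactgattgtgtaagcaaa
RUNX2, chr6:45404524-45404723, shared: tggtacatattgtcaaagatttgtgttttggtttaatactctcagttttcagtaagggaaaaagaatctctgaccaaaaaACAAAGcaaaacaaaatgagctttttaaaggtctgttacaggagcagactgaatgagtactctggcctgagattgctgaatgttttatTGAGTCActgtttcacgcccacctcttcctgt
The first of these held TGAGTCA at positions 7 to 13, ACAATG on the minus strand at 71 to 76 and TGTGGT at 145 to 150. The second held TGAGTCA at 20 to 26, ACAAAG on the minus strand at 36 to 41 and ACAAAG on the plus strand at 168 to 173. The RUNX2 window held ACAAAG at 81 to 86 and TGAGTCA at 169 to 175.

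Only 3 of the 102 intervals had their centre within 1 kb of an annotated transcript start of the 8 genes, and these are shown as the sites nearest to any such start. The first is near the start of a coding transcript, and the others are near starts of transcripts without a coding sequence. All 3 were SOX2-only, as were 68 of the 102 intervals and 43607 of 58827 over both lists. None held a SOX core, AP-1 or RUNX match, which 46.9%, 6.59% and 13.7% of all SOX2-only windows held. With 3 intervals, nothing is read from this.
RUNX2, chr6:45295125-45295324, SOX2-only: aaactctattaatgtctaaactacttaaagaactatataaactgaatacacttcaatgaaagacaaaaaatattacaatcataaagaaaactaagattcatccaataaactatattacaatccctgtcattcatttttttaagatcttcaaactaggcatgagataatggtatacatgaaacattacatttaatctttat
RUNX2, chr6:45330150-45330349, SOX2-only: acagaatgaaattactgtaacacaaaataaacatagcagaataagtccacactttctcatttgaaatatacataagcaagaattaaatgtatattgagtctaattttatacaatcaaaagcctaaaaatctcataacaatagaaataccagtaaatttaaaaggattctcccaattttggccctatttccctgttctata
CBFB, chr16:67116780-67116979, SOX2-only: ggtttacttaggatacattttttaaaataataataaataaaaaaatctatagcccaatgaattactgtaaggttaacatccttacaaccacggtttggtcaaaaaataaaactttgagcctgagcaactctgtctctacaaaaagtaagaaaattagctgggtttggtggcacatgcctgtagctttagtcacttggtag

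By their counts, the loci fell into a group rich in intervals and a group nearly free of them. RUNX1 held 38 intervals, NFIA 27, RUNX2 24 and CBFB 9, whereas NFIB held 2, RUNX3 1, NFIC 1 and NFIX none. Per Mb of locus, the order was RUNX2 with 55.0, CBFB with 52.3, NFIA with 38.7, RUNX1 with 28.9, RUNX3 with 6.04, NFIB with 4.79, NFIC with 3.92 and NFIX with 0. The exact Poisson 95% intervals, for counting error only, were 35.3 to 81.9 for RUNX2, 23.9 to 99.3 for CBFB, 25.5 to 56.3 for NFIA and 20.4 to 39.6 for RUNX1, so neighbours among these 4 did not differ beyond counting error. They were 0.153 to 33.6 for RUNX3, 0.581 to 17.3 for NFIB and 0.0994 to 21.9 for NFIC, which rest on 1 or 2 intervals each. For NFIX, with no interval, the range was 0 to 18.1. The range of RUNX3 overlapped those of RUNX1, CBFB and NFIA, and the range of NFIC overlapped that of RUNX1. The 8 loci together held 27.8 per Mb (22.7 to 33.8), against 20.3 per Mb of the autosomes. That value pools the lengths of the loci, so the longest weigh most in it. Of 19222 autosomal protein-coding genes given the same flanks, 71.9% had at least 1 interval, and the median density was 14.4 per Mb (interquartile range 0 to 32.3). The median of the 8 loci was 17.4 per Mb (interquartile range 4.58 to 42.1). RUNX2 stood at or above 91.9% of them, CBFB 90.5%, NFIA 81.1% and RUNX1 71.2%, and the other 4 at or above 28.1% to 30.5%.

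**Figure D1:**
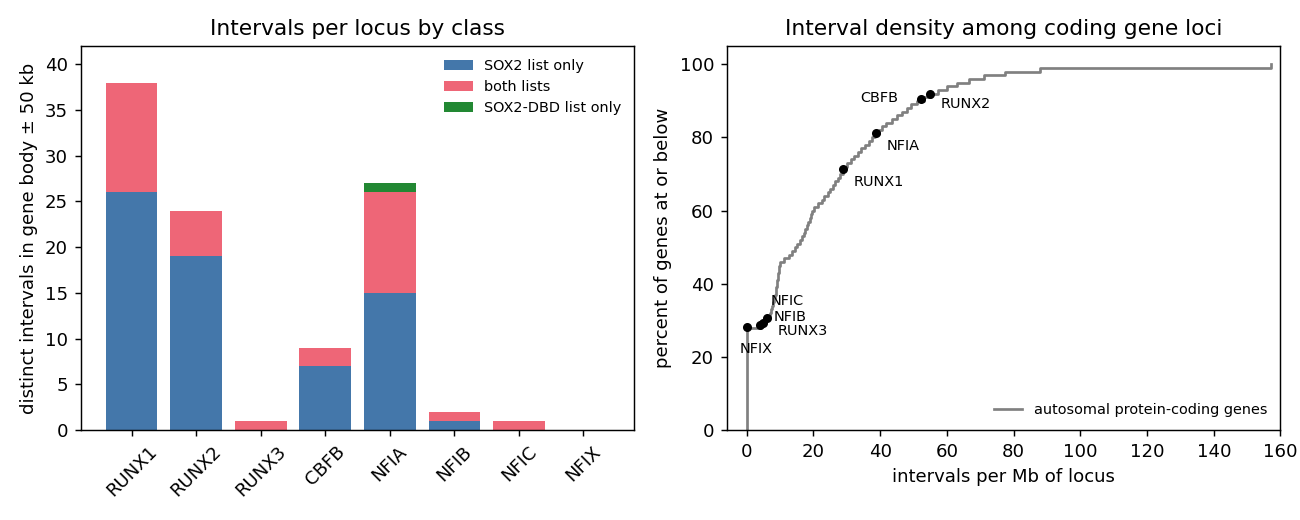
Left, distinct intervals in the gene body with 50 kb on either side, stacked by class, for the 8 genes (bars start at 0). Right, intervals per Mb of the same loci (points) on the cumulative distribution over 19222 autosomal protein-coding genes (grey line). RUNX1, RUNX2, CBFB and NFIA lie on the upper part of the curve and RUNX3, NFIB, NFIC and NFIX near its foot.

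Base composition moved with these densities. The GC content of the locus was 40.1% for NFIA and for RUNX2, 41.8% for RUNX1 and 45.8% for CBFB, against 51.4% for RUNX3, 55.0% for NFIC and 54.8% for NFIX. Over the 19222 coding gene loci, the median density was 36.3 per Mb below 40% GC, 25.2 from 40% to 45%, 9.53 from 45% to 50% and 0 from 50% upward, where 59.7% of loci held no interval. Spearman's rho between GC content and density was -0.55 across these genes, whose loci overlap one another and so are not independent. NFIB did not follow that order, with the lowest GC content of the 8 (38.7%) and 4.79 intervals per Mb, while CBFB had 52.3 per Mb where loci of its GC range had a median of 9.53. Chromosomes differed too, with 5.06 intervals per Mb on chromosome 19, which carries NFIC and NFIX, 9.50 on 16 with CBFB, 12.7 on 21 with RUNX1, 17.1 on 9 with NFIB, 23.6 on 1 with NFIA and RUNX3, and 26.6 on 6 with RUNX2. The part of GC content in the interval density was not tested.

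RUNX1 lies on the minus strand of chromosome 21 at 36160098-37376965, a body of 1217 kb of which its canonical transcript covers the 262 kb nearest the 3′ end. The intervals spread over the whole body rather than over the canonical gene. There were 8 inside the canonical span (30.6 per Mb), 29 upstream of its start (28.8 per Mb) and 1 downstream of its end. All 38 lay outside RUNX1 exons, 37 in introns and 1 in the 3′ flank. The canonical start stood in a stretch without intervals, the nearest being 47.4 kb into the gene, and the nearest start of any coding RUNX1 transcript was 5.15 kb from an interval. The longest stretch without an interval was 140 kb, in the upstream part. Counted over the canonical span with 50 kb on either side, most of the 38 would not be members.

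Of the 38 RUNX1 intervals, 26 were SOX2-only and 12 shared, with no DBD-only interval. The shared interval of highest total signal, 5275, lay at chr21:36569603-36570328, in an intron upstream of the canonical start. The highest of the SOX2-only intervals, 5091, lay at chr21:36847226-36848137. Total signal ranged from 1368 to 5275 with a median of 2508.5 in the shared intervals, and from 1203 to 5091 with a median of 2026 in the SOX2-only intervals. Both medians were below those of the whole lists, 2742 for shared and 2278 for SOX2-only intervals. RUNX1 intervals were thus many and of middling to low signal, at a median percentile of 43.8 among shared and 40.5 among SOX2-only intervals.

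RUNX2, the regulator of osteoblast formation, lies on the plus strand of chromosome 6 at 45295894-45632086, and its first part overlaps SUPT3H, a gene on the opposite strand for a subunit of histone acetylation complexes. It had 19 SOX2-only and 5 shared intervals. The 5 intervals upstream of the canonical start, within 50.2 kb, or 99.7 per Mb, were all SOX2-only and all lay within SUPT3H. A further 16 lay inside the canonical transcript, or 71.8 per Mb, and 3 downstream of it, or 18.4 per Mb. The interval nearest to a promoter of any of the 8 genes was here, at chr6:45294989-45295461, SOX2-only, centred 0.842 kb before the canonical start with a total signal of 1568. The other interval near a start, chr6:45329901-45330598, was SOX2-only with a total signal of 3337 and stood 940 bp from the start of a RUNX2 transcript without a defined coding sequence.

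The shared RUNX2 intervals lay between 88.4 and 205 kb into the gene, so that the 13 intervals before them, counted from the 5′ end, were all SOX2-only. Their highest total signal was 5320, at chr6:45450272-45450913, and the highest SOX2-only value was 4121, at chr6:45261784-45262624 within SUPT3H. The median percentile was 25.1 among shared and 28.3 among SOX2-only intervals, below those of RUNX1. RUNX2 was therefore dense in intervals that ranked low within their lists.

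CBFB, on the plus strand of chromosome 16 at 67062887-67134961, is the shortest of the dense loci. All 9 intervals, 7 SOX2-only and 2 shared, fell within the same 50 kb, with a median spacing of 5.19 kb. They ran from the middle part of the gene to just past its end. The nearest to the canonical start lay 26.8 kb into the gene. That interval, chr16:67089647-67090013, was shared and had the highest total signal of the locus, 3878. The highest SOX2-only value was 2654, at chr16:67095021-67095546. The SOX2-only intervals were weak within their list, with a median percentile of 8.35 and 1 of 7 above the median of all SOX2-only intervals. The interval chr16:67116661-67117098, 892 bp from the start of a retained-intron transcript of CBFB, had a total signal of 1252.

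RUNX3, on the minus strand of chromosome 1 at 25226002-25291612, had no interval in its body. Its single interval was shared, lay in the flank past the 3′ end and had a total signal of 7057, the highest of the 33 shared intervals and at the 95.7th percentile of shared intervals.

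**Figure D2:**
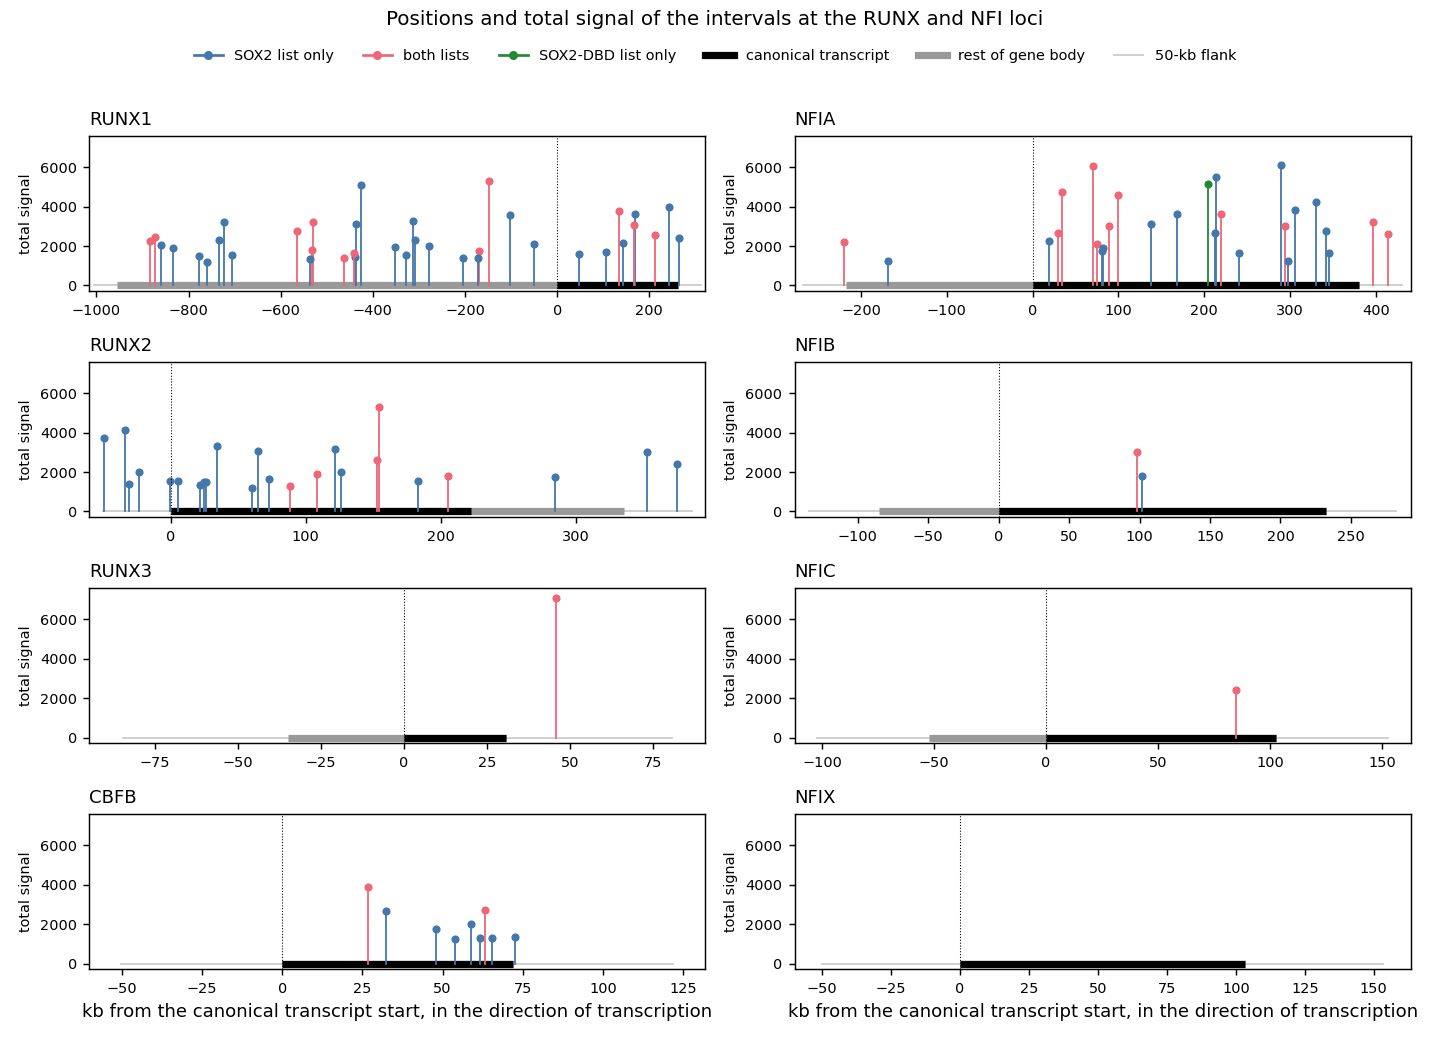
Each panel shows 1 locus, with distance in kb from the start of the canonical transcript along the direction of transcription on the horizontal axis and the total signal of each interval, as deposited, on the vertical axis. Intervals lie along the introns of RUNX1, RUNX2, CBFB and NFIA, the dotted line at the canonical start has an interval close by in RUNX2 alone, and NFIX is empty.

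NFIA, on the plus strand of chromosome 1 at 61330931-61928460, held 15 SOX2-only intervals, 11 shared and 1 DBD-only. Of these, 23 lay within the canonical transcript, or 60.5 per Mb, and 2 in the 267 kb upstream of it, or 7.48 per Mb. A stretch of 188 kb without intervals held the canonical start, and the first interval stood 19.6 kb into the gene. The canonical gene was thus denser than the part upstream of it in NFIA, with 60.5 against 7.48 per Mb. The same held in CBFB, with 111 per Mb in the canonical span and 0 in the 50.2 kb upstream. NFIB had 8.61 and NFIC 9.74 per Mb in the span and 0 upstream, from 2 and 1 intervals. The contrast was not present in RUNX1, where the densities were 30.6 and 28.8, or in RUNX2, where they were 71.8 and 99.7. The differences were not tested. The shared interval of highest total signal, 6081, was chr1:61618481-61618619, in an intron. That total exceeds its maximum multiplied by its width, as described below, and the next highest shared value was 4753. The highest SOX2-only interval, 6107, was chr1:61837421-61838732, also intronic. Signals ranked higher within their lists than at RUNX1 and RUNX2, with a median percentile of 56.4 among shared and 62.1 among SOX2-only intervals.

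NFIA also held the only DBD-only interval and the only intervals in exons of their own gene outside 1 kb of a start. The exonic ones were SOX2-only at chr1:61567594-61568087 and shared at chr1:61577065-61577544 and chr1:61582294-61583028, with total signals of 2264, 2668 and 4753, all 3 in exons of retained-intron transcripts and none in coding sequence. The DBD-only interval, chr1:61751382-61753124, was intronic, 1743 bp wide and had a total signal of 5159, at the 67.7th percentile of DBD-only intervals. It was 1 of 102 intervals at the 8 loci. Over both lists together 1.56% of intervals were DBD-only, and 4.87% of coding gene loci held at least 1. The NFIA locus spans 698 kb, against a median of 128 kb over coding gene loci, and a longer locus has more room for an interval.

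The other NFI genes were nearly empty. NFIB, on the minus strand of chromosome 9 at 14081842-14398982, had 1 SOX2-only interval at chr9:14212062-14212347 and 1 shared interval at chr9:14215718-14215896, with total signals of 1817 and 3009. They lay 3.60 kb apart in introns, 98.3 kb or more from the canonical start, and 233 kb of the locus formed an unbroken stretch without intervals. Both of the windows at their centres held an AP-1 match. NFIC, on chromosome 19 at 3314401-3469215, had 1 shared interval in an intron, chr19:3451009-3451332, with a total signal of 2402. NFIX, on chromosome 19 at 13106289-13209610, had none, and the nearest intervals lay 225 kb and 258 kb from its ends.

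The choice of 50 kb touched few intervals. The flanks held 13 of the 102, of which the farthest inside lay 49.2 kb from RUNX2. The nearest left outside stood 53.9 kb from RUNX2, 55.4 kb from RUNX3 and 56.3 kb from NFIA.

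The share of SOX2-list intervals that also stood in the SOX2-DBD list was 33 of 101, or 32.7% (24.3 to 42.3), at the 8 loci and 24.7% over the whole SOX2 list, which lies within that range. It was 20 of 72, or 27.8% (18.8 to 39.0), at the RUNX and CBFB loci and 13 of 29, or 44.8% (28.4 to 62.5), at the NFI loci. The NFI value came mainly from NFIA with 11 of 26, or 42.3% (25.5 to 61.1), beside 31.6% (19.1 to 47.5) at RUNX1, 20.8% (9.24 to 40.5) at RUNX2 and 22.2% (6.32 to 54.7) at CBFB. The range for NFIA began just above the value of the whole list and overlapped those of RUNX1, RUNX2 and CBFB. Of all coding gene loci, 39.0% held at least 1 shared interval, as did 7 of these 8. The median locus length was 128 kb over all coding genes and 336 kb for these 8. A longer locus has more room for an interval, so these shares are not of like loci.

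Each of the 33 shared intervals had the same positions in both lists, as did all 14300 shared intervals of the series, so the class of an interval also reflects how the lists were put together. For 6 of the 33, the total signal exceeded the maximum signal multiplied by the width, which the sum of signal over an interval cannot do. This was so for 23.1% of all shared intervals and for none of the SOX2-only or DBD-only intervals. The 6 were 2 at NFIA, among them its highest shared interval, 139 bp wide with a maximum of 10 and a total of 6081, and 1 each at RUNX1, RUNX2, CBFB and NFIB. Their signal may therefore not describe the listed positions, and the group in which it was measured is not stated.

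Of the SOX2-list intervals, 64 of 101, or 63.4% (53.6 to 72.1), overlapped an interval of the down-sampled SOX2 list, against 64.3% of the whole list. The values were 65.8% at RUNX1, 61.5% at NFIA, 58.3% at RUNX2 and 55.6% at CBFB, all within counting error of the whole list. The down-sampled list also held 3 intervals at these loci that overlapped no SOX2 interval, at chr6:45405044-45405350 and chr6:45405920-45406398 in RUNX2 and in the 3′ flank of RUNX3. Each lay close to a shared interval already described, the RUNX2 pair next to the window with both motifs printed above, chr6:45404526-45404722, and the RUNX3 interval next to its single shared interval.

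By place, 88 of 102 centres, or 86.3% (78.3 to 91.6), were in introns of some gene, against 64.0% of all intervals. Loci drawn around gene bodies hold more intron than the genome, and the share over the 45842 intervals of all coding gene loci drawn the same way was 71.4%, also below the range of the 8 loci. The lengths of the introns were not compared. Within 1 kb of a transcript start of any gene there were 4, or 3.92% (1.54 to 9.65), against 6.84% of all intervals, the fourth being a shared RUNX1 interval at the start of ENSG00000286153, a lncRNA gene without a symbol.

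In the 200-bp windows, the motif shares of the whole lists lay within the counting ranges of the 8 loci. The SOX core motif was found in 45 of 102 windows, or 44.1% (34.9 to 53.8), against 47.2% of all windows and 26.5% of windows 10 kb downstream of the same centres. The downstream windows were richer in GC, with a median of 40.25% against 33.5% in the windows at the centres. The part of GC content in the downstream shares was not tested. The RUNX motif was in 17, or 16.7% (10.7 to 25.1), against 14.3% overall and 15.7% downstream. The NFI element TTGGCA was in 14, or 13.7% (8.36 to 21.7), against 10.4% overall and 10.8% downstream, and the full palindrome (TTGGC and GCCAA 5 bases apart) in none of 102, and in 4 of 58827 windows overall. Taking 3 counts of the total as the limit that a count of 0 allows, here and for later counts of 0, the share could be up to 2.94%. For both motifs, the value of the whole lists and that of the downstream windows lay within the counting range of the 8 loci.

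The AP-1 motif was in 14 of 102 windows, or 13.7% (8.36 to 21.7), against 9.22% overall and 3.92% downstream. In windows at the region of maximum signal it was in 18 of 102, or 17.6% (11.5 to 26.2), against 9.94% of all intervals, which lay outside the range. This value was not split by class, and shared intervals made up 33 of 102 here and 14300 of 58827 in all. The region of maximum signal lay outside the listed interval for 3 of the 33 shared intervals and for 24.4% of all shared intervals. At interval centres, the motif was in 9 of 33 shared windows, or 27.3% (15.1 to 44.2), against 16.9% of all shared windows. Among SOX2-only windows it was in 5 of 68, or 7.35% (3.18 to 16.1), against 6.59%. Both ranges held the value of the whole lists. The shared value was 9 of 22, or 40.9% (23.3 to 61.3), without NFIA and 4 of 21, or 19.0% (7.67 to 40), without RUNX1. The loci differed in how the shared matches were placed. At RUNX1, 5 of 12 shared windows (41.7%, 19.3 to 68.0) and 0 of 26 SOX2-only windows (a share of up to 11.5%) held the motif, while at NFIA 0 of 11 shared windows did, which allows a share of up to 27.3%, and 2 of 15 SOX2-only windows did. The shared windows at NFIB and NFIC, 1 of 2 at CBFB and 1 of 5 at RUNX2 held it, and the single shared window at RUNX3 did not. The SOX core motif was in 3 of 12 shared windows at RUNX1 (25.0%, 8.89 to 53.2) and 7 of 11 at NFIA (63.6%, 35.4 to 84.8). Both ranges held the 48.3% of all shared windows. Among SOX2-only windows the order was the reverse, with 15 of 26 at RUNX1 (57.7%, 38.9 to 74.5) and 3 of 15 at NFIA (20%, 7.05 to 45.2). The 46.9% of all SOX2-only windows lay within the range of RUNX1 and just above that of NFIA. Windows 10 kb downstream had 41.7% at RUNX1 and 18.2% at NFIA for shared intervals, and 30.8% and 40% for SOX2-only intervals. Over all classes the values at interval centres were 47.4% at RUNX1 and 37.0% at NFIA. RUNX1 and NFIA were set side by side after their values were seen, and the difference was not tested.

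**Figure D3:**
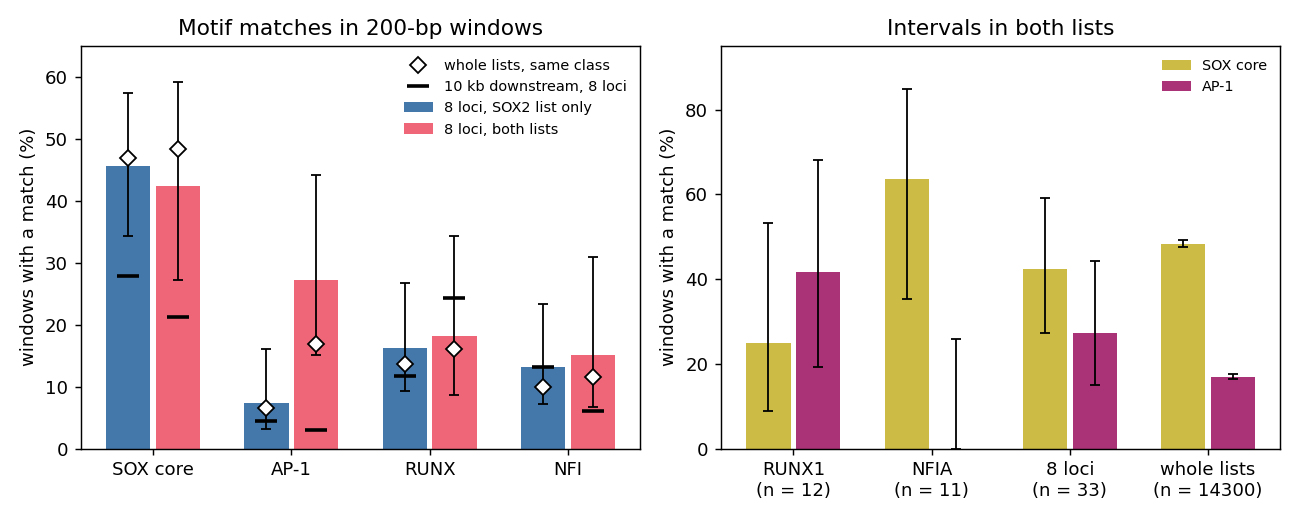
Share of 200-bp windows with a motif match, in percent, with Wilson 95% intervals as error bars. Left, the 8 loci by class, with NFI standing for the element TTGGCA, diamonds for all intervals of that class and dashes for windows 10 kb downstream. Right, SOX core and AP-1 matches in the shared windows of RUNX1, NFIA, the 8 loci and the whole lists. The diamonds lie within the error bars of the 8 loci, and NFIA has no AP-1 match among its 11 shared windows.

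The SOX2 list carries a seventh column for shared intervals, whole numbers whose meaning is not given in the sources used here. At the 8 loci it was 1 or more in 13 of 33 shared intervals, or 39.4% (24.7 to 56.3), against 34.5% of all shared intervals. RUNX1 supplied 9 of the 13, from 12 shared intervals (75%, 46.8 to 91.1), and 3 of the 4 with a value of 2, the highest at these loci (6 over all shared intervals). The other loci had 4 of 21, or 19.0% (7.67 to 40), namely 3 of 11 at NFIA and 1 of 5 at RUNX2. The range for RUNX1 lay above the value of all shared intervals and the range for the other loci held it, but the choice of RUNX1 followed a look at the values, and the difference was not tested. Intervals were of similar width, with medians of 415 bp at RUNX1 and 382 bp at the other loci. A SOX core match anywhere in the interval was present in 8 of 12 at RUNX1 and 16 of 21 at the others. Such a match was more frequent where the column was 1 or more, in 7 of 9 against 1 of 3 with 0 at RUNX1, in 4 of 4 against 12 of 17 at the other loci, and in 87.4% of 4929 against 54.9% of 9371 over all shared intervals. Intervals with 1 or more were also wider, with medians of 435 against 341 bp over all shared intervals. The medians were 429 against 389 bp at RUNX1 and 442 against 382 bp at the other loci. A wider interval has more room for a match, and the part of width was not tested.

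**Figure D4:**
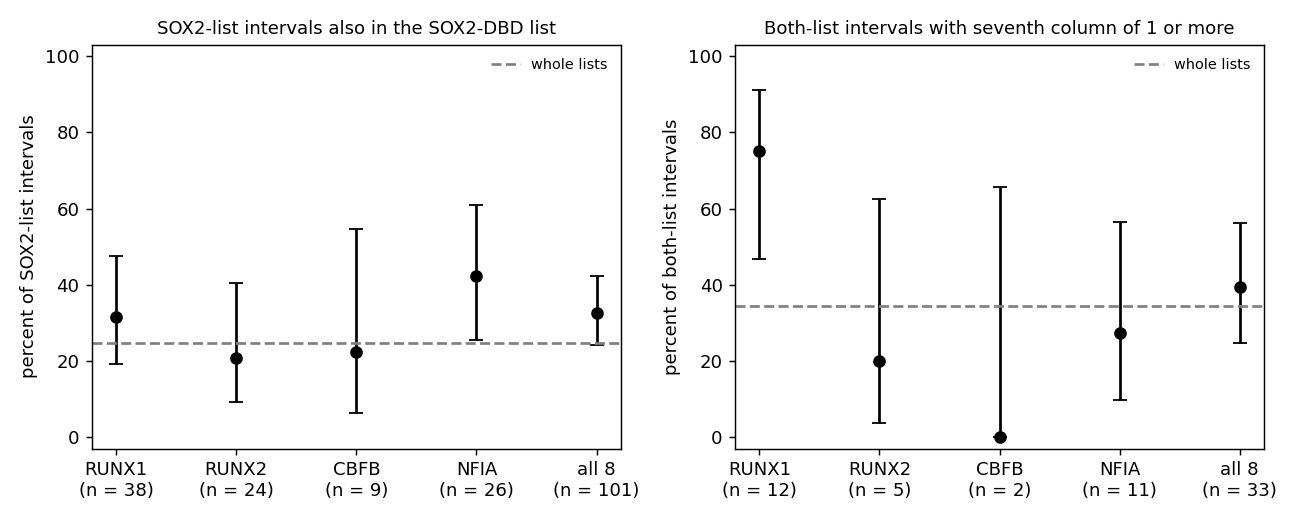
Left, the percentage of SOX2-list intervals also in the SOX2-DBD list, and right, the percentage of shared intervals with a seventh column of 1 or more, for RUNX1, RUNX2, CBFB, NFIA and all 8 loci. Points are shares, bars are Wilson 95% intervals and the dashed line is the whole lists (24.7% and 34.5%). RUNX1 stands above the line on the right, and NFIA stands highest on the left.

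Among coding genes with a locus length within 20% of the member's, those nearest in their counts of SOX2-only, shared and DBD-only intervals were named for the members with 10 or more intervals. RUNX2 had the same counts (19, 5 and 0) as FUT8, NF1 and UBE2E2, from 587 candidates. NFIA was nearest to PALM2AKAP2 (14, 12 and 0), FOXP1 (15, 9 and 0) and CFAP299 (18, 10 and 0), from 222. RUNX1 held more intervals than each of its nearest, SPAG16 (23, 8 and 0), NRG1 (17, 10 and 1) and LSAMP (20, 4 and 0), from 61. The likeness is the Euclidean distance over 3 counts and rests on 1 list per group.

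Of 32 other genes of these pathways, 26 had at least 1 interval and 11 at least 1 shared interval, and 3 had a DBD-only interval, with a median of 22.4 intervals per Mb. Over all coding gene loci the shares were 71.9%, 39.0% and 4.87% and the median was 14.4 per Mb, so nothing is read from the counts. Among 13 cofactor genes, TLE4, a Groucho-type corepressor of RUNX proteins, had 8 SOX2-only and 16 shared intervals (94.1 per Mb), while its relative TLE1 had 5 and 1, TLE3 1 and 0, and TLE2 none. RUNX1T1, the corepressor joined to RUNX1 in a leukaemia fusion, had 12 and 7, and its relatives CBFA2T2 and CBFA2T3 had 4 and 0 and none. The acetyltransferase gene KAT6B had 9 SOX2-only, 3 shared and 1 DBD-only interval. Among 12 genes known as RUNX targets, the bone matrix gene SPP1 had 8 SOX2-only and 4 shared intervals in a locus of 108 kb, and BGLAP, for osteocalcin, had none. Among 7 NFI targets and partners, EZH2, for the Polycomb methyltransferase, had 12 SOX2-only, 1 shared and 1 DBD-only interval, and GFAP, of astrocytes, and SOX9, a partner of NFIA in glial cells, had none. Relatives ranged from none to 24 intervals in the TLE family and from none to 19 among RUNX1T1, CBFA2T2 and CBFA2T3. The counts were 7 and 13 for KAT6A and KAT6B and 2 and 5 for EP300 and CREBBP. These loci differ in length, with 150 kb for TLE2 and 255 kb for TLE4, and their GC content was not compared.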

How the data were processed

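Per the submitters' processing notes, the tools behind the deposited lists were Bowtie2 2.3.4.1, SAMtools, bedtools 2.27.1, SEACR 1.3 and deepTools 3.5.0 with build hg19, given without roles. Thresholds, filters and pooling of replicates are not given in the sources used here. The deposited SOX2 and SOX2-DBD lists give a total and a maximum signal per interval, in the column order of SEACR, with normalization unstated, so signal was ranked only within a class. The down-sampled list was used for positions, and the deposited seventh column has no stated unit.

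Exact duplicate rows were counted once, overlap began at 1 bp, and no interval reached beyond a GRCh37 chromosome end. Coordinates are printed 1-based. Named intervals were the highest of each class per locus, those within 1 kb of a start, the DBD-only interval and shared exonic ones; none had a seventh column of 3 or more. The SOX2-only exonic interval at NFIA and the windows with both motifs were added after their values were seen. The position and sequence of the RUNX3 interval are not reported here. The members and lists were chosen with earlier results of these data known. The code was tested on simulated data. Alternatives covered locus, overlap, duplicates, signal, merging, motif and window. Work was done in python 3.11.15, numpy 2.4.6, pandas 2.3.3, scipy 1.17.1 and matplotlib 3.10.9.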

Additional observations from a re-analysis of the deposited data

How the results depend on the processing

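No paired analysis was possible because only 1 list per group was analysed, and no replicate could be left out. Keeping the upper 50% of each list by total signal left 48 intervals at the loci, or 13.1 per Mb. In 100-bp windows, matches fell to 23.5% for the SOX core, 5.88% for AP-1, 5.88% for RUNX and 2.94% for NFI, and in whole intervals they were 75.5%, 24.5%, 34.3% and 26.5%, by construction of the windows. Over all intervals the whole-interval values were 77.3%, 18.9%, 34.3% and 26.9%. The longer SOX sequence gave 15.7%, TGTGGTTT 3.92% and the NFI palindrome 0%. At the region of maximum signal, AP-1 was at 17.6% (11.5 to 26.2) against 9.94% of all intervals, outside the counting range, unlike at interval centres. That value was not split by class. Within 5 kb of a start of the 8 genes there were 12 intervals, and within 1 kb of starts of coding transcripts 1. The shared percentage ran from 29.3% without NFIA to 36.4% without RUNX2, settings chosen after seeing the data, and gene bodies alone, 100-kb flanks, canonical spans, centres, deposited rows and merging moved no count over 1.5 times. The canonical spans with flanks held 69 intervals. Without RUNX1, the seventh column was 1 or more in 19.0% of shared intervals. The unknown depth limits what an empty locus shows.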
